A study of Mus musculus with 26 samples.

Results

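The GADD45 family of the mouse has the 3 members Gadd45a, Gadd45b and Gadd45g, which were taken by gene symbol from the deposited tables. They are 3 of the 20430 symbols measured in RNA and 3 of the 19941 symbols measured in ribosome footprints, and all 3 were found in both. None of the older symbols that RefSeq lists for them occurred as a separate row.

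The cells were NIH3T3, an established line of mouse embryonic fibroblasts, which all groups share. Polyadenylated RNA was sequenced in 8 groups, and the mRNA pieces covered by ribosomes (footprints, the readout of ribosome profiling) in 5 groups, with 2 libraries in each. Heat was given as 44 °C for 2 h or 42 °C for 8 h and had a control of its own; H2O2, an oxidant, and KCl, which raises the osmolarity and the potassium of the medium, were each given for 2 h or 7 h and shared another control. Footprints of the heat groups were not analysed here, and the labels give no concentrations and no genetic change. The labels do not say whether the 2 libraries of a group came from separate cultures, so the p-values measure the spread between these libraries, which may be technical.

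GADD45 proteins are small acidic proteins without a known enzymatic activity, named for their induction by growth arrest and DNA damage. They act by binding others: the kinase MAP3K4, which they activate towards p38 and JNK signalling; the cell cycle proteins PCNA, p21 and the CDK1 and cyclin B1 complex; and, for GADD45B, the kinase MAP2K7. They also take part in the active removal of DNA methylation together with the glycosylase TDG. Gadd45a is a textbook target of p53, Gadd45b was first found as a myeloid differentiation gene and responds to NF-kB and TGF-beta, and Gadd45g was found as a cytokine-inducible gene.

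The genes lie on different chromosomes. RefSeq, on assembly GRCm38.p6, places Gadd45a at chr6:67035096-67037407, Gadd45b at chr10:80930091-80932204 and Gadd45g at chr13:51846675-51848475. The 250 bases before each transcription start are shown 5′ to 3′ because the members moved apart in the data below and these windows show which elements they share and which they do not. Capitals mark matches, on either strand, to CCAAT, to the octamer ATGCAAAT, to the TATA box TATAAA and to the E-box CACGTG. The windows are chr6:67037408-67037657 on the minus strand, chr10:80929841-80930090 on the plus strand and chr13:51846425-51846674 on the plus strand.
Gadd45a: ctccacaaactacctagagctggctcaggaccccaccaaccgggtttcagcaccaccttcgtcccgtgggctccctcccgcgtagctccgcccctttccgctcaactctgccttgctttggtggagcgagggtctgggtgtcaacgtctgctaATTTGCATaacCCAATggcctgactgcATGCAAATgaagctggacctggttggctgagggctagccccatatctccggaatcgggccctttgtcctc
Gadd45b: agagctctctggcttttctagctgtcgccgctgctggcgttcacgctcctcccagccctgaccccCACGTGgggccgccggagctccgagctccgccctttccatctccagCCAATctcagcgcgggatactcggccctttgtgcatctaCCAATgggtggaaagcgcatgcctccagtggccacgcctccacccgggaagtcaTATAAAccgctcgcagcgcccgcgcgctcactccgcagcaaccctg
Gadd45g: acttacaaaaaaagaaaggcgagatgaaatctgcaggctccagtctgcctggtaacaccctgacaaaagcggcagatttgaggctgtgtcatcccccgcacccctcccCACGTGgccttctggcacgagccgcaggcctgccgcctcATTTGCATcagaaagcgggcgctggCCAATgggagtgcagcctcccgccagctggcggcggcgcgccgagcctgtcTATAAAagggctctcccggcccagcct

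A CCAAT box stood in each of the 3, starting 86 bases before the start of Gadd45a, 139 and 100 bases before that of Gadd45b and 78 bases before that of Gadd45g. CCAAT occurs in 37.4% of the 32851 RefSeq promoter windows of 300 bases (250 before and 50 after the start) searched on both strands. The Gadd45a window held the octamer at 97 and 70 bases before the start, and the Gadd45g window held it at 103 bases before the start, against 1.74% of all windows. Gadd45b had no octamer. TATAAA stood 46 bases before the start of Gadd45b and 27 bases before that of Gadd45g but was not found in the Gadd45a window (13.6% of all windows), and the E-box was found in the same pair (7.15%). A p53 half-site, left in lower case, began 40 bases before the start of Gadd45a (8.36% of all windows). The other 7 motifs had no match: AP-1 (TGANTCA), CRE (TGACGTCA), the C/EBP-ATF composite (TGATGNAAT), FOXO (TGTTTAC), EGR (GCGTGGGCG), HSF (TTCNNGAA) and NF-kB (GGANTTTCC). The matches did not overlap each other, and a match or its lack is a description of these letters only.

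RNA libraries held 24441877 to 45244430 expected counts and footprint libraries 1460751 to 5168537, the extremes of the latter both being libraries of 2 h of H2O2. Over the RNA libraries the members had 193 to 4787 counts each. In footprints they had 12 to 531, so that the footprint values below carry more counting error. Fibroblast markers summed to 4147 to 11276 TPM (a level corrected for transcript length and library size) in each RNA library. Of other cell types, Cd3e was at 0 and Ptprc at most 0.05 TPM, and the endothelial markers summed to at most 2.19 TPM. The epithelial markers summed to 7.89 to 19.6 TPM, of which Krt18 had 6.46 to 17.2 and Epcam at most 1.12, and the macrophage marker Cd68 ranged from 5.32 to 44.7 TPM. The part of these transcripts in the results was not tested.

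The 3 genes answered the stresses in different combinations. H2O2 raised Gadd45a at both times and Gadd45b after 2 h, with Gadd45g lower at both times. Long mild heat raised Gadd45b and Gadd45g about 4-fold and Gadd45a by a much smaller amount. KCl after 7 h lowered all 3. In bulk RNA, a change in each cell and a change in the share of cells with the transcript cannot be told apart, and all levels are relative to the other RNA of the library.

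**Figure D1:**
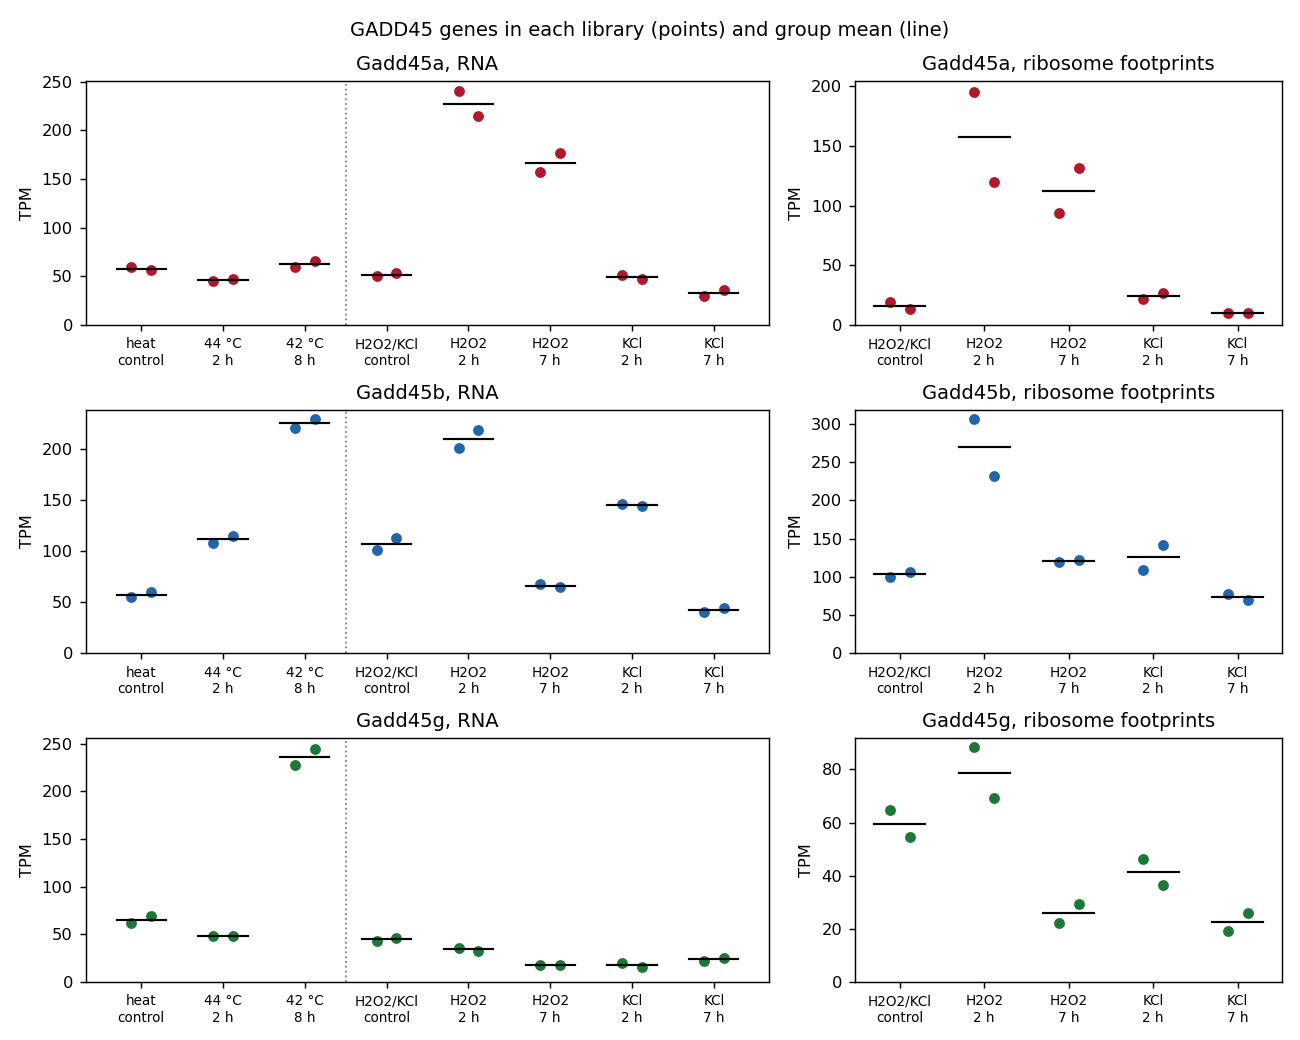
TPM of each GADD45 gene (rows) in every RNA library (left) and footprint library (right); points are libraries, lines are means of 2, and the dotted line separates the heat experiment from the H2O2/KCl experiment. Gadd45a stands highest in H2O2 and Gadd45g in RNA at 42 °C, while Gadd45b RNA is high at 42 °C and after 2 h of H2O2 but not after 7 h.

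Many genes passed the test in RNA, which sets the scale for these calls (edgeR quasi-likelihood test, adjusted p under 0.05 over all genes tested). At 44 °C for 2 h 1 member rose and 2 fell, where 71% of the 12747 genes tested were called. At 42 °C for 8 h 3 rose (63.6% called), and between these heat groups all 3 differed (75.1%). With H2O2, 2 rose and 1 fell by 2 h (53.9% of 13256 genes called), and after 7 h 1 rose and 2 fell (70.5%). With KCl, 1 rose, 1 fell and 1 was not called by 2 h (54.2%), and after 7 h 3 fell (68.8%). With 3 members, such counts do not stand apart from the background, and the sizes of the changes carry more than the counts.

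Gadd45a, the p53-responsive member, had 49.8 and 53.3 TPM in the H2O2/KCl control, 240.2 and 214.9 after 2 h of H2O2 and 156.9 and 176.4 after 7 h. The H2O2 libraries did not overlap those of any other group, and the order 2 h above 7 h above control held in each library. The log2 fold change was 2.14 ± 0.090 (SE) after 2 h (4.41-fold, adjusted p = 2.1e-10) and 1.77 ± 0.091 after 7 h (3.42-fold, adjusted p = 3.8e-10). The change after 2 h was exceeded in size by 906 of the other genes tested. KCl libraries had 50.8 and 46.9 TPM after 2 h, which overlapped the control, and 29.1 and 36.1 after 7 h, the lowest RNA level of the gene in the study. Its change was 0.03 after 2 h of KCl (95% interval −0.18 to 0.23, adjusted p = 0.84) and −0.57 ± 0.10 after 7 h (1.48-fold lower, adjusted p = 0.00017).

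In heat, Gadd45a moved little. The heat control libraries had 59.3 and 56.3 TPM, those of 44 °C 45.4 and 47.4, and those of 42 °C 59.0 and 66.1. The 44 °C libraries lay below both control libraries (log2 fold change −0.38 ± 0.068, adjusted p = 0.00016), while the 42 °C libraries overlapped them. The rise at 42 °C, 0.30 ± 0.065 on counts (adjusted p = 0.0012), was not called on log2(TPM + 1), where it was 0.11 (limma, adjusted p = 0.13).

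Gadd45b, the member that responds to NF-kB and TGF-beta, rose in both heat groups and after 2 h of H2O2 and of KCl. The heat control libraries held 54.9 and 60.0 TPM, the 44 °C libraries 108.4 and 115.2, and the 42 °C libraries 221.0 and 229.5, with no overlap between these groups. The log2 fold change was 0.90 ± 0.058 at 44 °C (1.86-fold, adjusted p = 6.6e-09) and 2.16 ± 0.055 at 42 °C (4.47-fold, adjusted p = 9.9e-13), where 207 of the 12747 genes tested changed more. The H2O2/KCl control stood at 101.6 and 113.3 TPM, 1.87 times the mean of the heat control, an offset between the experiments that enters any level set across them.

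The oxidant and KCl each took Gadd45b up and then down. After 2 h of H2O2 it had 200.8 and 219.2 TPM (log2 fold change 0.97 ± 0.067, 1.95-fold, adjusted p = 4.1e-08), and after 7 h 67.6 and 65.1, below both control libraries (−0.61 ± 0.071, 1.53-fold lower, adjusted p = 2.5e-06). KCl libraries had 146.2 and 144.3 TPM after 2 h (0.54 ± 0.068, 1.45-fold, adjusted p = 1.4e-05) and 40.7 and 44.8 after 7 h (−1.23 ± 0.074, 2.35-fold lower, adjusted p = 5.2e-09). In neither agent did the 2 h, control and 7 h libraries overlap.

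Gadd45g, the cytokine-inducible member, had its highest RNA level at 42 °C, with 228.1 and 244.8 TPM against 61.3 and 69.1 in the heat control. Every RNA library outside that group had 69.1 TPM or less, and the log2 fold change was 2.05 ± 0.058 (4.13-fold, adjusted p = 2.4e-12). At 44 °C it had 48.0 and 47.6 TPM, below the control (−0.51 ± 0.066, 1.42-fold lower, adjusted p = 9.0e-06).

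The other agents lowered Gadd45g. The H2O2/KCl control had 43.3 and 45.5 TPM, and the 8 stressed libraries of that experiment had 15.7 to 35.5, all below it. Values of 35.5 and 32.7 were found after 2 h of H2O2 (log2 fold change −0.38 ± 0.098, 1.30-fold lower, adjusted p = 0.0045), and after 7 h 17.7 in both libraries (−1.25 ± 0.11, 2.38-fold lower, adjusted p = 9.7e-08). The KCl libraries of 2 h had 20.1 and 15.7 (−1.21 ± 0.11, 2.32-fold lower, adjusted p = 4.3e-07) and those of 7 h had 22.0 and 24.9 (−0.82 ± 0.10, 1.77-fold lower, adjusted p = 6.9e-06).

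Ordered by mean RNA level over both experiments, the groups formed a different series for each gene. These orders are a description and include the offset between the controls, with H2O2/KCl control levels 0.892, 1.87 and 0.681 times those of the heat control for Gadd45a, Gadd45b and Gadd45g. Gadd45a ran from 227.5 TPM after 2 h of H2O2 to 32.6 after 7 h of KCl, a 6.98-fold span, and the neighbours 42 °C and heat control, H2O2/KCl control and 2 h of KCl, and 2 h of KCl and 44 °C overlapped. Gadd45b ran from 225.2 TPM at 42 °C to 42.8 after 7 h of KCl, a 5.27-fold span in which 44 °C overlapped the H2O2/KCl control while standing 1.86-fold above its own. Gadd45g spanned 13.4-fold, from 236.5 TPM at 42 °C to 17.7 after 7 h of H2O2, the latter overlapping 2 h of KCl.

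The direct comparison of the heat groups asked how long mild heat differs from short severe heat. All 3 genes were higher at 42 °C than at 44 °C, by log2 values of 0.68 ± 0.068 for Gadd45a, 1.26 ± 0.053 for Gadd45b and 2.56 ± 0.061 for Gadd45g (adjusted p = 4.3e-07, 5.7e-11 and 3.2e-13). For Gadd45g this was a 5.88-fold difference, exceeded in size by 196 genes. Temperature and time both differed between these groups, so their parts cannot be told apart.

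From 2 h to 7 h the members fell in H2O2, by log2 values of 0.37 ± 0.085 for Gadd45a, 1.58 ± 0.071 for Gadd45b and 0.87 ± 0.11 for Gadd45g (adjusted p = 0.0013, 1.0e-10 and 6.3e-06; 73.4% of genes called). In KCl the same interval lowered Gadd45a by 0.59 ± 0.10 (adjusted p = 0.00016) and Gadd45b by 1.77 ± 0.075 (3.40-fold, adjusted p = 2.1e-10), again with 68.8% of genes called. Gadd45g was higher after 7 h than after 2 h of KCl by 0.39 ± 0.12 (adjusted p = 0.0097). That last call was lost without the second library after 2 h (0.22, adjusted p = 0.14) or the second after 7 h (0.31, adjusted p = 0.071).

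Set against each other at the same time, H2O2 libraries had more of each member than KCl libraries after 2 h. The log2 differences were 2.12 ± 0.094 for Gadd45a, 0.43 ± 0.068 for Gadd45b and 0.83 ± 0.11 for Gadd45g (adjusted p = 5.4e-10, 0.00012 and 3.0e-05; 51.3% of genes called). After 7 h Gadd45a was 5.06-fold higher in H2O2 (2.34 ± 0.098, adjusted p = 3.1e-11) and Gadd45b 1.53-fold higher (0.62 ± 0.077, adjusted p = 3.9e-06), although both agents had lowered Gadd45b. Gadd45g was lower in H2O2 (−0.42 ± 0.12, adjusted p = 0.0040; 78.4% of genes called).

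The 2 h responses were also compared across experiments, each taken from its own control. The response of Gadd45a to H2O2 exceeded that to 44 °C by a log2 value of 2.57 ± 0.12 (5.93-fold, adjusted p = 1.8e-11; 58% of 13597 genes called, median of all genes 0.11). Those of Gadd45b (0.11, 95% interval −0.08 to 0.31) and Gadd45g (0.17, −0.08 to 0.42) were not called as different (adjusted p = 0.31 and 0.24). Against KCl after 2 h, where 62% of genes were called, the response to 44 °C was larger for Gadd45b (KCl minus heat −0.32 ± 0.093, adjusted p = 0.0060) and Gadd45g fell less in heat (−0.67 ± 0.13, adjusted p = 0.00025). The difference for Gadd45a, 0.44 ± 0.13 (adjusted p = 0.0060), was lost without heat control replicate 1, 44 °C replicate 1 or H2O2/KCl control replicate 1 (adjusted p = 0.068, 0.071 and 0.068) and on log2(TPM + 1) (limma, 0.24, adjusted p = 0.15).

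**Figure D2:**
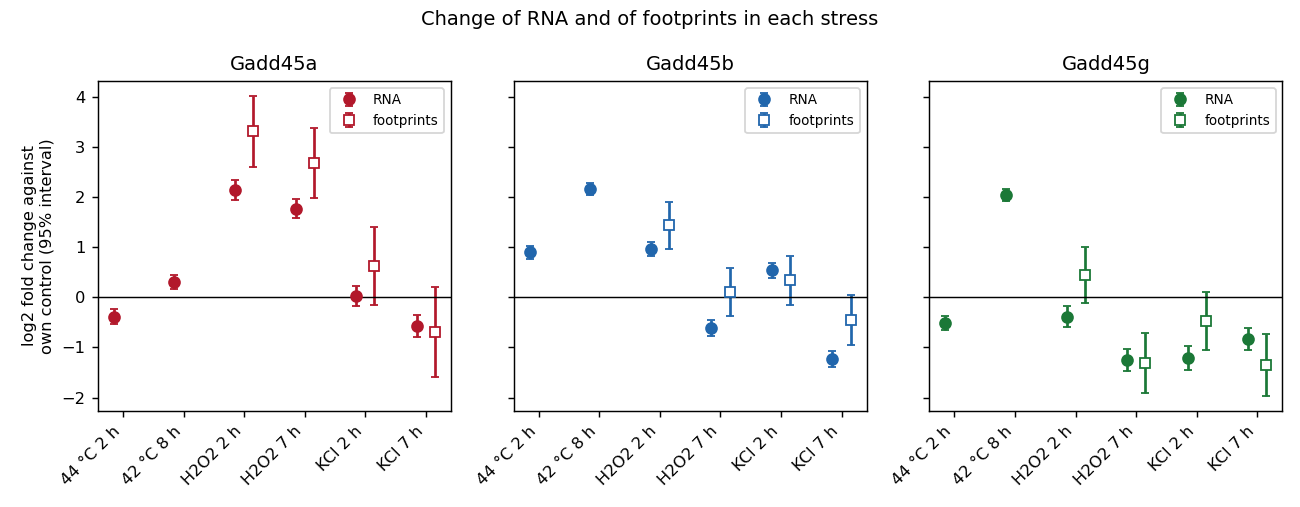
Log2 fold change of each gene against the control of its experiment, in RNA (filled circles) and footprints (open squares), with 95% intervals from edgeR. In H2O2 the estimates of Gadd45a lie higher in footprints than in RNA, a difference called only weakly after 2 h and not called after 7 h. Intervals of footprints are wider than those of RNA throughout.

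Footprints show which of these transcripts sat on ribosomes. Far fewer genes were called here, 1.91% of the 10545 genes tested after 2 h of H2O2. Of the 3 members 2 were called there, both higher, and the call of Gadd45b was lost in some alternatives given below. The members were chosen with earlier results of these data known, so these counts are a description and no test. By 7 h of H2O2 1 member rose and 1 fell (27.7% of genes called). None of the 3 was called after 2 h of KCl (6.86%), with raw p-values of 0.098 to 0.15, and neither DESeq2 nor limma called any. By 7 h of KCl 1 fell (20.4%).

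Gadd45a footprints stood at 18.9 and 13.5 TPM in the control (33 and 22 counts), 195.3 and 120.2 after 2 h of H2O2 (134 and 285 counts) and 93.6 and 131.4 after 7 h. The H2O2 times overlapped each other and lay far above every other group. The change was 3.31 ± 0.33 on the log2 scale after 2 h (9.94-fold, adjusted p = 0.00019), exceeded in size by 31 of the 10545 genes tested, and 2.69 ± 0.33 after 7 h (6.44-fold, adjusted p = 5.7e-05). KCl gave 21.4 and 26.6 TPM after 2 h and 10.04 and 9.51 after 7 h (12 and 15 counts). Those changes, 0.62 ± 0.36 and −0.69 ± 0.41, were not called (adjusted p = 0.38 and 0.25).

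Gadd45b footprints had 99.7 and 106.8 TPM in the control, 307.1 and 232.4 after 2 h of H2O2 and 119.9 and 121.5 after 7 h. The rise after 2 h was 1.44 ± 0.22 (2.71-fold, adjusted p = 0.0068), and the call was lost without control replicate 1 (1.35, adjusted p = 0.056) and when only these groups were fitted (1.44, adjusted p = 0.058). After 7 h, where its RNA was below the control, the footprints were not (0.11, 95% interval −0.37 to 0.59, adjusted p = 0.75). In KCl they had 108.8 and 142.0 TPM after 2 h and 78.1 and 69.8 after 7 h, and neither change was called (0.34 ± 0.22 and −0.45 ± 0.23, adjusted p = 0.45 and 0.18).

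Gadd45g footprints had 64.5 and 54.4 TPM in the control and 88.4 and 69.2 after 2 h of H2O2, a difference that was not called (0.45, 95% interval −0.11 to 1.00, adjusted p = 0.40). The later H2O2 libraries had 22.2 and 29.4 TPM (−1.31 ± 0.28, 2.48-fold lower, adjusted p = 0.0035). KCl gave 46.4 and 36.4 after 2 h (−0.47 ± 0.27, adjusted p = 0.36) and 19.2 and 25.9 after 7 h (−1.35 ± 0.28, 2.55-fold lower, adjusted p = 0.0060). The 7 h libraries of both agents lay below all others, and the call in KCl was lost without the first 7 h library (−1.17, adjusted p = 0.056).

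Between the times of H2O2, footprints fell for Gadd45b by 1.33 ± 0.22 and for Gadd45g by 1.76 ± 0.28 (adjusted p = 0.00067 and 0.00052, 29.8% of genes called). Gadd45a was not called (−0.63 ± 0.28, adjusted p = 0.11). It was called in the fit without the second 2 h library (−0.96) and in that with a replicate block crossed at 2 h of H2O2. In KCl the fall from 2 h to 7 h was 1.32 ± 0.41 for Gadd45a and 0.79 ± 0.23 for Gadd45b (adjusted p = 0.036 and 0.029; 20.6% of genes called). The first of these was lost without any of its 4 libraries (adjusted p = 0.056 to 0.19), and the second without either 7 h library or the second 2 h library (0.093, 0.15 and 0.24). Gadd45g lay at the threshold with −0.87 ± 0.30 (adjusted p = 0.052); it was called with upper quartile factors (adjusted p = 0.037), by limma on either log2 TPM scale (0.038 and 0.039) and when only these groups were fitted (0.047), and not by DESeq2 (0.11).

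H2O2 exceeded KCl after 2 h in footprints of Gadd45a by 2.69 ± 0.32 (adjusted p = 0.00084) and of Gadd45b by 1.10 ± 0.22 (adjusted p = 0.015), where 5.12% of genes were called. The Gadd45b call was lost without the first H2O2 library or the first KCl library (0.90 and 0.87, adjusted p = 0.064 and 0.13), and Gadd45g was not called (0.92 ± 0.27, adjusted p = 0.067). After 7 h Gadd45a differed 10.4-fold (3.38 ± 0.36, adjusted p = 1.3e-05; 41.2% of genes called), and the other members were not called (0.56 ± 0.23 and 0.04 ± 0.31, adjusted p = 0.065 and 0.93).

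Translational efficiency, how many footprints a gene has for its RNA, set the members apart before any stress. In the control the ratio of mean footprint CPM (counts scaled to library size after TMM normalization) to mean RNA CPM was 0.262 for Gadd45a, 0.750 for Gadd45b and 1.23 for Gadd45g, against a median of 0.710 over 10467 genes. This put Gadd45a at the 10.4th percentile, Gadd45b at the 53.1st and Gadd45g at the 79.9th. RNA reads come from the whole transcript and footprints mostly from the coding part, so ratios of different genes also depend on the length of their untranslated regions. After 2 h of H2O2 the ratios were 0.609, 1.05 and 2.23 in the same order, the last at the 94.9th percentile. They were 0.499, 1.24 and 1.18 after 7 h of H2O2, after 2 h of KCl 0.400, 0.653 and 2.05, and after 7 h of KCl 0.240, 1.29 and 0.844.

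**Figure D3:**
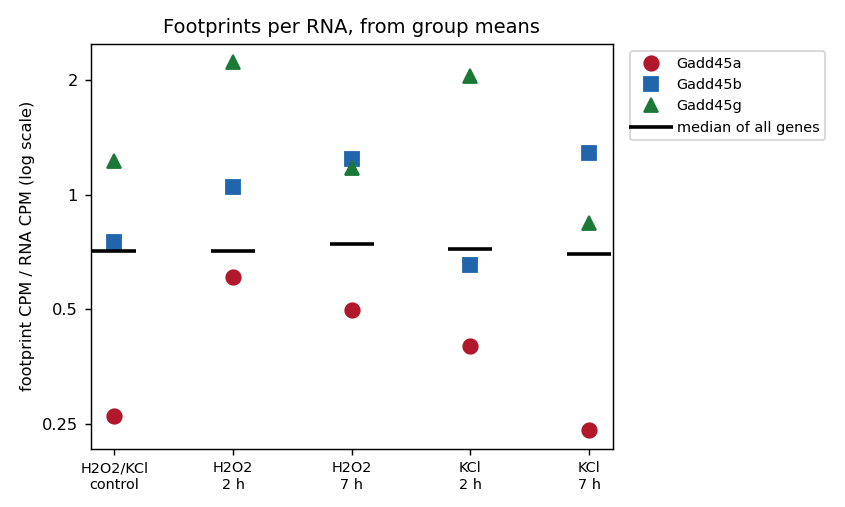
Ratio of mean footprint CPM to mean RNA CPM on a log axis for the 3 genes and, as black bars, for the median of all genes, in the 5 groups of the H2O2/KCl experiment. Gadd45a stays below the median of all genes in the 5 groups and Gadd45g above it.

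Tested as an interaction over the 20 libraries, the change of this ratio after 2 h of H2O2 was called higher for Gadd45a (1.08 ± 0.34 on the log2 scale, 2.12-fold, adjusted p = 0.046) and Gadd45g (0.75 ± 0.22, 1.68-fold, adjusted p = 0.038), where 11.4% of 10480 genes were called. Gadd45b had 0.42 ± 0.20 (adjusted p = 0.19). Both calls were weak: each was lost without any of 7 of the 8 libraries involved, with adjusted p up to 0.18 and 0.12. Neither was made by limma voom with a weight for each kind of library (adjusted p = 0.20 and 0.13), and that of Gadd45a was lost with the replicate block (adjusted p = 0.063).

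After 7 h the ratio was called higher for Gadd45b in both agents. In H2O2 it rose by 0.73 ± 0.21 (1.66-fold, adjusted p = 0.035; 9.27% of genes called) and in KCl by 0.80 ± 0.22 (1.75-fold, adjusted p = 0.040; 5.57%). These calls were lost without 7 of 8 and 8 of 8 libraries (adjusted p up to 0.12 and 0.13) and with voom weights (adjusted p = 0.067 and 0.10). For the other members, Gadd45a had 0.92 ± 0.34 and Gadd45g −0.06 ± 0.27 with H2O2 (adjusted p = 0.10 and 0.92), and with KCl they had −0.11 ± 0.48 and −0.49 ± 0.27 (adjusted p = 0.93 and 0.33).

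After 2 h of KCl, where 12.8% of genes were called, edgeR called none of the 3 members, although Gadd45g had a raw p of 0.010 (0.72 ± 0.25, adjusted p = 0.066) and was called by DESeq2 (adjusted p = 0.040). Gadd45a had 0.58 ± 0.40 and Gadd45b −0.21 ± 0.21 (adjusted p = 0.38 and 0.56). Between the times of KCl the ratio of Gadd45b rose by 1.01 ± 0.22 (2.02-fold, adjusted p = 0.012) and that of Gadd45g fell by 1.21 ± 0.29 (2.32-fold, adjusted p = 0.021), with 6.84% of genes called. The Gadd45b call held with voom weights and was lost without the first footprint or the first RNA library after 7 h (adjusted p = 0.054 and 0.052). The Gadd45g call was lost with voom weights (adjusted p = 0.11) and without 4 of 8 libraries, namely the first footprint library at either time, the second RNA library after 2 h and the second after 7 h (adjusted p = 0.059 to 0.082).

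Between the times of H2O2 no member was called by edgeR (7.2% of genes called), with a raw p of 0.0069 for Gadd45g (−0.81 ± 0.27, adjusted p = 0.070), which DESeq2 called (adjusted p = 0.046). H2O2 against KCl gave no edgeR call after 2 h (4.9%) or after 7 h (12.1%). Raw p-values under 0.05 there were 0.0062 for Gadd45b after 2 h (0.63 ± 0.20, adjusted p = 0.080), called by DESeq2 (adjusted p = 0.045), and 0.022 for Gadd45a after 7 h (1.03 ± 0.41, adjusted p = 0.11).

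**Figure D4:**
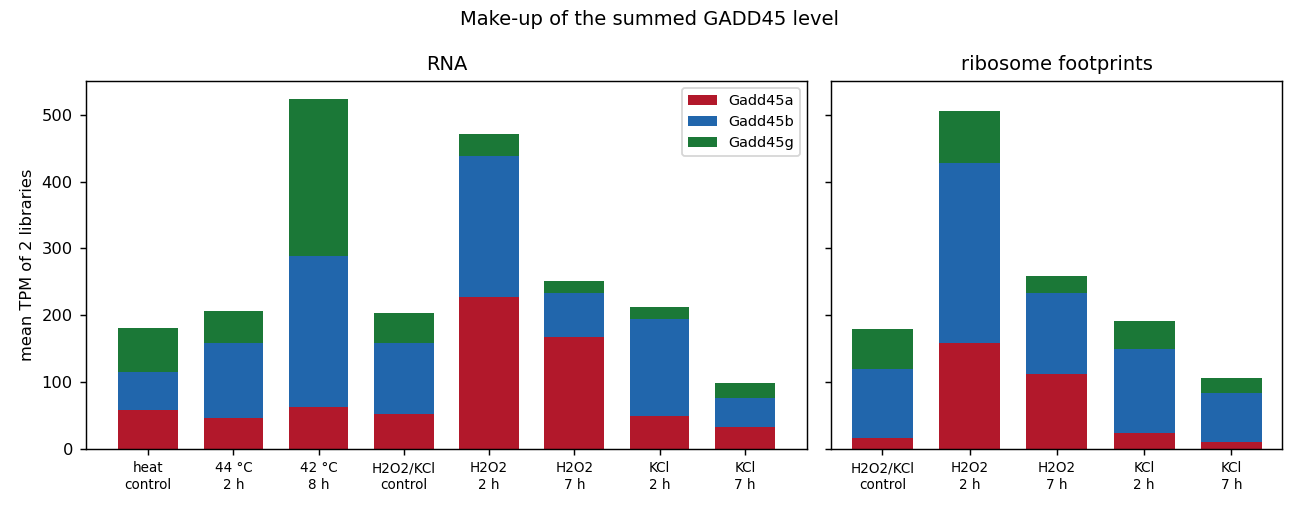
Mean TPM of 2 libraries per group, stacked by gene, in RNA (left) and footprints (right). The summed RNA level is highest at 42 °C and after 2 h of H2O2; Gadd45b is a large share of both, joined by Gadd45g at 42 °C and by Gadd45a in H2O2.

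Summed over the 3 genes, RNA stood at 180.5 ± 7.0 TPM (SD, n = 2) in the heat control and 203.4 ± 12.3 in the H2O2/KCl control. It was 524.3 ± 22.8 at 42 °C and 471.6 ± 6.8 after 2 h of H2O2, and 98.8 ± 9.9 after 7 h of KCl. Gadd45b gave a like share of both high sums, 43.0% at 42 °C and 44.6% after 2 h of H2O2, while the other members exchanged places. At 42 °C Gadd45g gave 45.1% and Gadd45a 11.9%, and after 2 h of H2O2 Gadd45a gave 48.2% and Gadd45g 7.23%. By 7 h of H2O2 Gadd45a made up 66.4% of the sum. In footprints Gadd45a gave 9.01% of the control sum of 178.9 TPM and 43.1% after 7 h of H2O2. By group mean Gadd45b was the largest share in each of the 5 groups, from 47.0% to 69.5%. After 7 h of H2O2 the libraries differed in order. Gadd45b had 50.9% and Gadd45a 39.7% in the first, and 43.0% and 46.6% in the second.

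Known partners and regulators were described from 7 lists with 58 genes in all, 57 or 58 of them tested in RNA. By 7 h of H2O2 28 were higher and 18 lower, which is 80.7% against 70.5% of all genes. In KCl at that time 27 were higher and 16 lower (75.4% against 68.8%). At 44 °C 24 were higher and 22 lower (79.3% against 71%), and at 42 °C 27 and 15 (72.4% against 63.6%). The 2 h groups had 18 higher and 17 lower with H2O2 (61.4% against 53.9%) and 19 and 15 with KCl (59.6% against 54.2%). These shares lie near those of all genes. In footprints 9 of the 56 tested were higher and none lower after 2 h of H2O2 (16.1% against 1.91%), and 18 were higher and 6 lower after 7 h (42.9% against 27.7%). With KCl 12.5% of them were called in footprints after 2 h against 6.86% of all genes, and 35.7% after 7 h against 20.4%. The lists were chosen with earlier results of these data known, so an excess over all genes is a description and no test.

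Of the kinases that the proteins act on, Map3k4, the direct target, was lower at 44 °C (−0.32 ± 0.044), 42 °C (−0.11 ± 0.043), 2 h of H2O2 (−0.39 ± 0.069) and 7 h of H2O2 (−0.23 ± 0.069) and higher after 7 h of KCl (0.55 ± 0.068). Mapk14, which encodes p38 alpha, was higher after 7 h in both agents, by 0.54 ± 0.054 with H2O2 and 0.48 ± 0.054 with KCl. Mapk8, encoding JNK1, was lower at 44 °C (−0.42 ± 0.070) and higher at 42 °C (0.44 ± 0.067), and was not called in the H2O2 and KCl groups (adjusted p = 0.15 to 0.79). Map2k7, the kinase bound by GADD45B, differed from its control by at most 0.27, higher after 7 h of KCl. Map3k5 was higher at 44 °C (0.73 ± 0.097) and lower after 7 h of KCl (−0.80 ± 0.15). The largest changes of the 10 genes were those of the p38 and JNK activators Map2k4 and Map2k3 after 7 h of H2O2, 1.21 ± 0.065 and 1.17 ± 0.057. The list's median ranged from −0.11 after 2 h of H2O2 to 0.27 after 7 h of KCl, against −0.00095 and 0.04 for all genes.

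The 5 cell cycle partners did not move as 1 group. Cdkn1a, which encodes the cell cycle inhibitor p21, rose by 1.69 ± 0.069 after 2 h and by 5.45 ± 0.077 after 7 h of H2O2. In heat it rose by 0.54 ± 0.055 at 44 °C and fell by 1.13 ± 0.062 at 42 °C. With KCl it was not called after 2 h (0.15, adjusted p = 0.098) and fell by 1.42 ± 0.081 after 7 h. The mitotic genes Ccnb2 (−2.003 ± 0.063), Ccnb1 (−1.22 ± 0.068) and Cdk1 (−0.84 ± 0.067) were lower after 7 h of H2O2, while Pcna was slightly higher (0.22 ± 0.068). Ccnb2 was also lower at 44 °C (−1.39 ± 0.051), and Pcna rose further in KCl, by 0.41 ± 0.068 and 0.47 ± 0.068 after 2 h and 7 h. Ccnb1 (0.12) and Cdk1 (0.01) were not called after 7 h of KCl (adjusted p = 0.13 and 0.86). Footprints of Cdkn1a rose by 1.62 ± 0.25 and 5.31 ± 0.28 in H2O2 at the earlier and later time. The median of the 5 genes was −0.84 after 7 h of H2O2, against 0.08 for all genes.

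The other genes first cloned as growth arrest and DNA damage genes are not related to the family by sequence. Ddit3, which encodes the transcription factor CHOP, rose by 1.37 ± 0.079 and 2.63 ± 0.079 after 2 h and 7 h of H2O2 and fell by 1.57 ± 0.10 at 42 °C. Ppp1r15a, which restores translation by directing the dephosphorylation of eIF2 alpha, rose by 2.81 ± 0.078 and 2.59 ± 0.078 in H2O2 and by 2.51 ± 0.078 and 0.74 ± 0.080 in KCl, and moved less in heat (−0.23 ± 0.062 at 44 °C and 0.45 ± 0.060 at 42 °C). Footprints of both genes were also higher after 2 h of H2O2, by 2.46 ± 0.47 for Ddit3 and 3.21 ± 0.38 for Ppp1r15a.

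Of 18 transcription factors reported to act on GADD45 genes, 8 were higher and 3 lower after 2 h of H2O2, 9 and 6 after 7 h, 12 and 4 at 42 °C, and 7 and 7 at 44 °C, where 53.9%, 70.5%, 63.6% and 71% of all genes were called. Atf4, the effector of the integrated stress response, rose by 1.22 ± 0.065 and 1.46 ± 0.065 in H2O2 and by 0.79 ± 0.065 and 0.52 ± 0.065 in KCl, and fell by 0.75 ± 0.042 at 44 °C and by 0.44 ± 0.042 at 42 °C. Foxo3 rose by 1.91 ± 0.067 after 7 h of H2O2 and by 1.31 ± 0.068 after 7 h of KCl. Egr1, an immediate early gene, rose by 2.58 ± 0.085 and 1.44 ± 0.083 in H2O2 and by 0.68 ± 0.044 at 42 °C, and fell by 0.82 ± 0.045 at 44 °C and by 1.98 ± 0.091 after 7 h of KCl. Trp53 itself changed by at most 0.66 ± 0.066, after 7 h of H2O2. The largest changes of the list were those of Atf3 (5.06 ± 0.094) and Myc (3.69 ± 0.096) after 2 h of H2O2. The list's median was 0.09 there and 0.28 after 7 h, against −0.00095 and 0.08 for all genes. Footprints of Atf4 rose by 2.44 ± 0.23 and those of Egr1 by 3.31 ± 0.34 after 2 h of H2O2, and the translational efficiency of Atf4, whose translation upstream reading frames control, rose by 1.18 ± 0.23 (adjusted p = 0.0033). It was the only 1 of the 18 called higher in translational efficiency there, and 3 were lower, where 11.4% of all genes were called.

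Among 8 RNA-binding proteins that bind AU-rich mRNAs, Zfp36, which promotes decay of its targets, rose by 2.54 ± 0.095 after 2 h of H2O2 and Zfp36l1 by 1.60 ± 0.077 after 2 h of KCl. Of the 8, 5 were higher and 2 lower in the former group and 6 and 1 in the latter, with medians of 0.38 and 0.21, where 53.9% and 54.2% of all genes were called. The DNA demethylation and repair partners had none higher and 5 of the 10 tested lower after 2 h of H2O2 (median −0.19). After 2 h of KCl none were higher and 6 of 10 lower (median −0.24). The shares called are near the same background. Every call of the list was lower in both groups. Over all genes the calls were split, with 3624 higher and 3516 lower in H2O2 and 3609 and 3576 in KCl. At 44 °C 5 of 11 partners were higher and 3 lower (71% of all genes called), and at 42 °C 2 and 1 (63.6%). In footprints none of the 9 tested was called after 2 h of H2O2 (1.91%). After 2 h of KCl 1 of the 9 was lower (6.86%). With so few genes, chosen with earlier results known, the direction is a description and no test. By 7 h of KCl 4 of the partners were higher and 5 lower (68.8% of all genes called). With 7 h of H2O2 4 were higher and 3 lower (70.5%), led by Tet1, a methylcytosine oxidase (3.07 ± 0.16), and the repair nuclease gene Ercc5 (2.98 ± 0.077). Of the 4 other binding partners, the largest changes were those of Ep300 after 7 h of KCl (1.17 ± 0.096) and Npm1 after 7 h of H2O2 (1.01 ± 0.085).

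The genes whose RNA pattern was most like that of each member were sought over 16 libraries and 12452 genes, as Pearson correlations of log2 CPM after subtracting the mean of the own control. For Gadd45a they were Lif (r = 0.988), Irf5 (0.970) and Sema7a (0.957). Lif, a cytokine of the IL-6 type, rose by 5.98 ± 0.14 after 2 h and by 4.76 ± 0.14 after 7 h of H2O2. For Gadd45b they were Sf1 (0.941), Krt80 (0.938) and Ube2n (0.924), of which the keratin gene Krt80 rose by 2.07 ± 0.071 at 42 °C. Sf1 and Ube2n changed far less, by 0.29 ± 0.043 and 0.29 ± 0.042 there. For Gadd45g they were Nkain1 (0.938), Dgke (0.923) and Wdr18 (0.918), which rose at 42 °C by 0.35 to 0.53. Within the family Gadd45b and Gadd45g had r = 0.710, Gadd45a and Gadd45b 0.137, and Gadd45a and Gadd45g −0.106. Yet Gadd45b and Gadd45g moved in opposite directions at 44 °C (0.90 and −0.51). They also did so after 2 h of H2O2 (0.97 and −0.38) and of KCl (0.54 and −1.21). Both rose at 42 °C (2.16 and 2.05), and both fell after 7 h of H2O2 and of KCl. The correlations are descriptions, since the libraries come in pairs and share their controls.

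The study's title concerns transcription that runs past a gene's end into its neighbour, and the authors deposited calls of such readthrough (DoG) and of its entry into the next gene (read-in) for 6399 gene pairs. A member occurred in 1 of them, with Gadd45b upstream of Thop1, a gene for a metallopeptidase. A DoG was called in 1 of 16 libraries, the second at 42 °C, and read-in in 0 of 16. The authors' read-in estimate of this pair was 0 in 12 libraries and at most 0.0019 in the other 4, of which 1 was a control. With no read-in call in any library, the calls cannot show whether read-in into Thop1 varies with the level of Gadd45b RNA.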

How the data were processed

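Polyadenylated RNA (16 libraries) and ribosome footprints (10 libraries) were analysed in 13 groups of 2. Expected counts of each gene, whole numbers in these tables, and TPM values were deposited by the authors. The submitters' processing notes name STAR, RSEM and Bowtie and the build mm10, without versions or roles. The authors also deposited true or false calls for gene pairs and an estimate of read-in for each pair, a ratio whose formula was not stated. A further 12 columns whose names match no labelled sample were not used.

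The main test was edgeR's quasi-likelihood test on expected counts (version 4.0.16 in R 4.3.3, with TMM, filterByExpr, Benjamini-Hochberg adjustment over all genes, threshold 0.05), with 1 fit per experiment in RNA, 1 for footprints, 1 for translational efficiency over 20 libraries (genes passing the filter in both kinds) and 1 over 16 RNA libraries for differences between experiments. An SE is that of the log2 fold change. The edgeR fits of each experiment in RNA, of footprints and of translational efficiency were tried on simulated data, with 1 contrast each. The fit over 16 RNA libraries and the alternatives were not. Alternatives were DESeq2 1.42.0, limma 3.58.1 on log2(TPM + 1) and log2(TPM + 0.1), limma voom, no filter, upper quartile factors, only the groups compared, a replicate block and leaving out each library. The replicate libraries of a group differed by more than sampling noise. Promoters came from RefSeq (GRCm38.p6, the assembly of mm10), which had all 3 members.

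Named genes were the members, 15 partners and regulators, the 2 genes of each list with the largest change among those called over the 6 contrasts of a stress with its control, and the 3 genes most like each member. Members and lists were chosen with earlier results of these data known.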

Additional observations from a re-analysis of the deposited data

Results flagged for a closer look

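Responses of the members after 7 h and 2 h of an agent differed by the test of the difference itself in 12 cases. Of all genes, 73.4% were called in RNA under H2O2 and 68.8% under KCl. In footprints 29.8% and 20.6% were called, and in translational efficiency under KCl 6.84%. Under KCl, the call of Gadd45g in RNA and each call in footprints and translational efficiency could be lost by leaving out 1 library, as given above. In RNA under H2O2 the 7 h minus 2 h difference (log2) was −0.37 for Gadd45a, −1.58 for Gadd45b and −0.87 for Gadd45g, and under KCl −0.59, −1.77 and 0.39. In footprints it was −1.33 for Gadd45b and −1.76 for Gadd45g under H2O2 and −1.32 for Gadd45a and −0.79 for Gadd45b under KCl. In translational efficiency under KCl it was 1.01 for Gadd45b and −1.21 for Gadd45g. For Gadd45b RNA the responses themselves had opposite signs after 2 h and 7 h in both agents.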

How the results depend on the processing

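Of 453 alternative values for the GADD45 members in RNA, 436 kept direction and call, against 261 of 288 in footprints and 248 of 312 in translational efficiency. In RNA, the number of GADD45 members called fell from 3 to 2 on either log2 TPM scale at 42 °C and in the KCl response against 44 °C. In footprints it became 1 after 2 h of H2O2 and 1 for H2O2 against KCl after 2 h when only the groups compared were fitted, and 2 for H2O2 against KCl after 7 h on either log2 TPM scale. Between the KCl times it became 3 with upper quartile factors, on either log2 TPM scale and with only the groups compared. In translational efficiency it became 0 with voom weights after 2 h and 7 h of H2O2 and 7 h of KCl and 1 for KCl between times; 0 after 7 h of KCl without a filter or, chosen after seeing the data, with a filter over the 20 libraries together; and 1 with DESeq2 after 2 h of KCl, between the H2O2 times and for H2O2 against KCl after 2 h. The cause was not tested.

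Leaving out 1 library gave 1 to 2 members called in footprints after 2 h of H2O2 and for H2O2 against KCl after 2 h, 0 to 1 after 7 h of KCl, 0 to 1 between the KCl times and 2 to 3 between the H2O2 times. In translational efficiency it gave 0 to 3 after 2 h of H2O2, 0 to 1 after 7 h of H2O2, 0 after 7 h of KCl, 0 to 2 between the KCl times, and 0 to 1 after 2 h of KCl, between the H2O2 times and for H2O2 against KCl after 2 h. The lone library of a group is then assumed to vary like the other groups.

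Reversals of sign occurred only in differences that were not called. For Gadd45a RNA after 2 h of KCl the log2 value was −0.051 with upper quartile factors, −0.075 on log2(TPM + 1) and −0.077 on log2(TPM + 0.1). For Gadd45g translational efficiency, H2O2 against KCl after 2 h, it was −0.0014 with voom weights. The others came from leaving out 1 library, with ranges of −0.036 to 0.084 for Gadd45a RNA after 2 h of KCl, −0.037 to 0.16 for Gadd45b RNA in the H2O2 response against 44 °C, −0.016 to 0.19 for Gadd45b footprints after 7 h of H2O2 and −0.28 to 0.27 for Gadd45g footprints, H2O2 against KCl after 7 h. In translational efficiency they were −0.36 to 0.15 for Gadd45g after 7 h of H2O2, −0.47 to 0.020 for Gadd45b after 2 h of KCl, −0.29 to 0.12 for Gadd45a after 7 h of KCl, −0.53 to 0.16 for Gadd45a between the H2O2 times, −0.17 to 0.25 for Gadd45g in H2O2 against KCl after 2 h and −0.15 to 0.018 for Gadd45b in H2O2 against KCl after 7 h.

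The labels do not say what a replicate number shares. Replicate differences correlated across genes at −0.05 to 0.12 between RNA groups and at −0.38 to 0.42 between footprint groups. With the replicate block the GADD45 members called in translational efficiency after 2 h of H2O2 became 1, and no other call of a member changed. With the numbers of 2 h of H2O2 crossed in footprints, chosen after seeing the data, the count for H2O2 against KCl after 7 h became 2, and those between the times of either agent and for H2O2 against KCl after 2 h became 3. Depth limits the footprint values of Gadd45a, which rest on 12 to 36 counts in the control and KCl libraries.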
